A study of Rattus norvegicus with 6 samples.

Results

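The Cyp2c genes encode a subfamily of liver cytochromes P450, the haem enzymes that add oxygen to drugs, steroids and fatty acids. Every probe set whose only gene symbol in the platform annotation begins with Cyp2c was taken, which gave 7 of the 31042 probe sets, 1 for each of Cyp2c11, Cyp2c13, Cyp2c12, Cyp2c22, Cyp2c7, Cyp2c6v1 and Cyp2c23. All 7 passed the filter on low values, a mean above the 40th percentile of probe sets. The arrays carried liver RNA of male Sprague Dawley rats gavaged with tienilic acid (TA, 100 mg/kg, dissolved with an equimolar amount of sodium bicarbonate) or with sodium bicarbonate alone. Livers were collected 6 h after 1 dose, or at 24 h with the second dose at 16 h. At each time, RNA of 2 vehicle rats was pooled on 1 array and 2 TA rats had 1 array each. The rats of 6 h and of 24 h were different animals, so the number of an animal is only its label within a time. The series title asks about early gene induction by TA, and the comparisons with vehicle below address that question for the enzymes of this subfamily. None of the values measures the oxidation of TA or enzyme activity.

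Tienilic acid is a diuretic drug with a thiophene ring. In rats the Cyp2c subfamily is known above all for its control by sex and growth hormone. Pulsed growth hormone, the male pattern, maintains Cyp2c11 and Cyp2c13, and the continuous female pattern maintains Cyp2c12. The liver receptors CAR and PXR, and factors such as HNF4A, also act on Cyp2c promoters.

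The vehicle groups have no replicate. Errors of single genes therefore come from the spread between the 2 TA animals of each time, with 2 residual degrees of freedom, and the p-values measure only that spread. At each time both TA animals were compared with the same pool. Array medians lay between 3.27 and 3.31 (log2), and no array stood apart by its correlations with the others (0.991 to 0.997 across probe sets). The liver label was borne out by hepatocyte markers, 12 of 13 measured, with albumin (Alb) at 16.54 to 16.67. Of 6 kidney and intestine markers 5 were below the filter. Runs were inferred from the hybridise times of day in the array settings, split at gaps of more than 10 minutes, and the date was not used. By this rule the vehicle pool and animal 1 of 6 h formed 1 run and the other 4 arrays another. All arrays of 24 h thus shared an inferred run. In whole liver RNA, fewer cells of a type and less RNA per cell cannot be told apart.

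None of the 7 Cyp2c genes passed the test for a change with TA at either time, whether male-specific, female-specific or common to both sexes. At 6 h 0 of the 7 passed limma's test across all probe sets, where 0 of 18625 (0.0%) passed. An unadjusted p under 0.05 was found for 0 of the 7 and for 1087 of the 18625. At 24 h 0 of the 7 passed, where 1 of 18625 (0.00537%) did. Again 0 of the 7 had an unadjusted p under 0.05, against 984 of the 18625. At shares as small as these, 0 of 7 does not set the subfamily apart. The 7 genes had a median TA minus vehicle difference (log2) of -0.19 at 6 h and -0.03 at 24 h. Over all probe sets it was -0.02 and -0.01, with quartiles of -0.17 and 0.06 at 6 h and of -0.12 and 0.10 at 24 h. For 6 of the 7 genes, all 4 TA animals lay within 2-fold of their vehicle pool, and the exception was Cyp2c12. None of the 7 was 2-fold lower or 2-fold higher in both animals, which held for 0.295% and 0.231% of all probe sets at 6 h and for 0.344% and 0.236% at 24 h.

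More members lay on the same side of vehicle in both animals at 6 h than at 24 h. At 6 h, 5 genes (Cyp2c11, Cyp2c13, Cyp2c22, Cyp2c7 and Cyp2c6v1) were below the vehicle pool in both animals, a position that 36.3% of all probe sets held. Cyp2c23 was above the pool in both, as were 21.0% of all probe sets, and Cyp2c12 was split. At 24 h, 2 genes (Cyp2c12 and Cyp2c6v1) were below the pool in both animals, where 36.8% of all probe sets were, 0 were above it in both, where 24.6% were, and 5 were split. With quantile normalization Cyp2c6v1 left the group lower in both at 6 h, which then held 4 genes, and at 24 h Cyp2c22 was above the pool in both. With arrays centred on their medians, Cyp2c22 and Cyp2c7 were above it in both at 24 h.

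**Figure D1:**
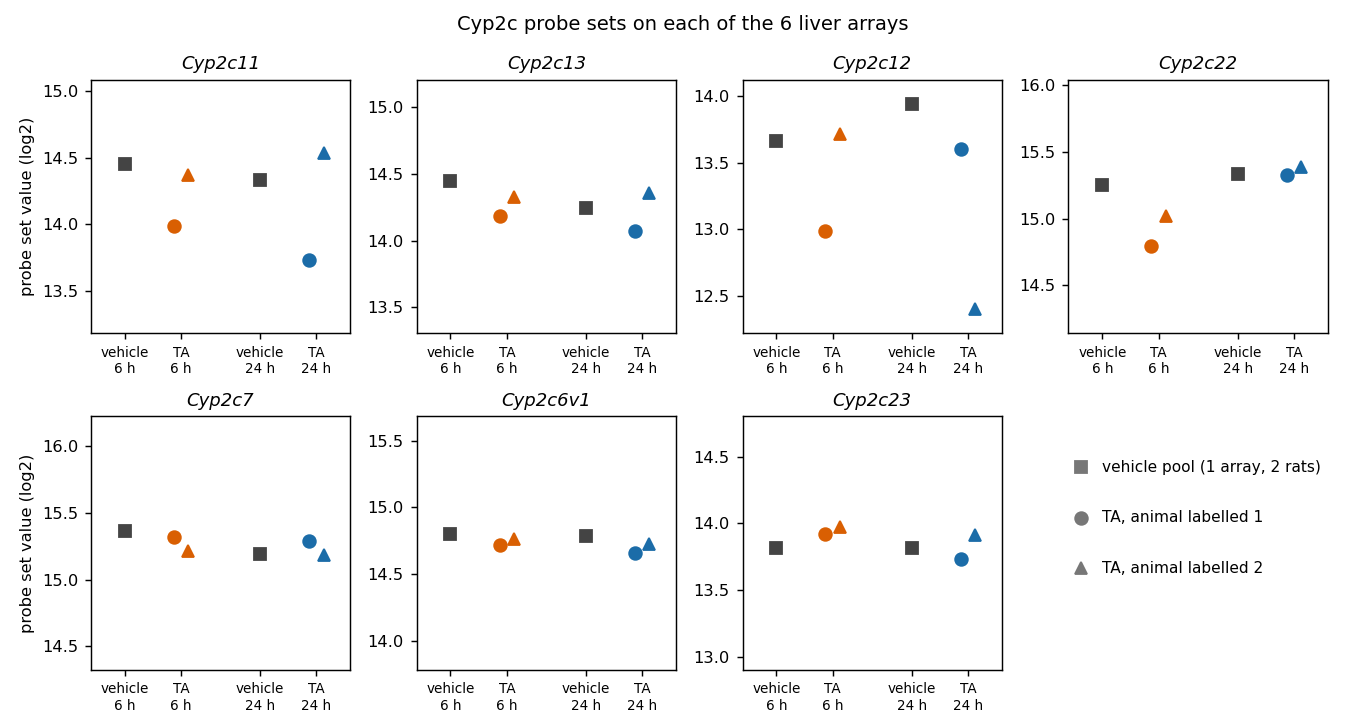
Value of each Cyp2c probe set (log2, vertical axis) on the 6 arrays: squares are vehicle pools of 2 rats, circles and triangles the TA animals labelled 1 and 2 of 6 h (orange) and 24 h (blue). All panels span the same number of log2 units, so that the wide spread of Cyp2c12 (12.40 to 13.94) and the narrow one of Cyp2c6v1 (14.66 to 14.80) can be compared by eye.

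Cyp2c11, the main male-specific form and a testosterone hydroxylase, was lowest at each time in the TA animal labelled 1. At 6 h it stood at 14.45 in the vehicle pool, 13.99 in animal 1 and 14.37 in animal 2. At 24 h it stood at 14.33 in the pool, 13.73 in animal 1 and 14.54 in animal 2. The 2 animals labelled 1 were thus the lowest arrays, and the animals labelled 2 lay near the pools or above them. The log2 difference of TA from vehicle was -0.28 ± 0.42 (SE, n = 2 TA animals) at 6 h and -0.20 ± 0.42 at 24 h, with 95% intervals of -1.48 to 0.93 and -1.41 to 1.01. Both intervals include a 2-fold decrease. Without animal 1 the difference was -0.08 at 6 h and 0.20 at 24 h, and without animal 2 it was -0.47 and -0.60. The value without animal 2 of 6 h is also the one within the inferred run that holds the pool of 6 h.

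Cyp2c13, another male-specific steroid hydroxylase, ordered the arrays nearly as Cyp2c11 did. It read 14.44 for vehicle at 6 h against 14.18 and 14.32 for TA, and 14.24 for vehicle at 24 h against 14.07 and 14.36. The differences from vehicle were -0.19 ± 0.17 at 6 h and -0.03 ± 0.17 at 24 h. Without animal 1 of 24 h the latter was 0.12. Its probe set carries the suffix that Affymetrix gives to sets matching more than 1 transcript, so signal from other Cyp2c transcripts may be part of it. Over the 6 arrays Pearson's r of Cyp2c13 with Cyp2c11 was 0.92, the highest of the 21 pairs within the subfamily. Both genes of a pair were measured on the same 6 arrays, and related sequences can share probe signal.

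Cyp2c12, the female-specific form, had the widest spread. It read 13.67 for vehicle at 6 h, 12.99 in animal 1 and 13.71 in animal 2. It read 13.94 for vehicle at 24 h, 13.60 in animal 1 and 12.40 in animal 2. The lowest arrays were thus animal 1 at 6 h and animal 2 at 24 h, where the value was 2.91-fold below the pool. The difference from vehicle was -0.32 ± 0.65 at 6 h and -0.94 ± 0.65 at 24 h (limma, adjusted p of 1.00 for both). At 24 h it was -1.54 without animal 1 and -0.34 without animal 2. At 6 h it turned to 0.05 without animal 1 and was -0.68 without animal 2. The 2 animals of 24 h differed by 1.20 (2.30-fold), a gap that 1.88% of all probe sets reached. It was the only 1 of the 7 genes whose animals were 2-fold apart at 24 h, as 2.89% of all probe sets were, and at 6 h none was, against 2.24% of all probe sets.

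The level of the Cyp2c12 probe set went against what is known of this gene in males. Its mean of 13.38 lay above 98.2% of the probe sets tested, on arrays of livers labelled male. Sult2a1, a hydroxysteroid sulfotransferase also known as female-predominant, lay between 2.99 and 3.10, and Cux2, a female-specific repressor, was below the filter, while Prlr and A1bg, given further on, reached 9.26 and 6.85 on single arrays. Levels of different probe sets do not compare amounts of RNA, and which transcripts the Cyp2c12 probes bind was not tested.

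**Figure D2:**
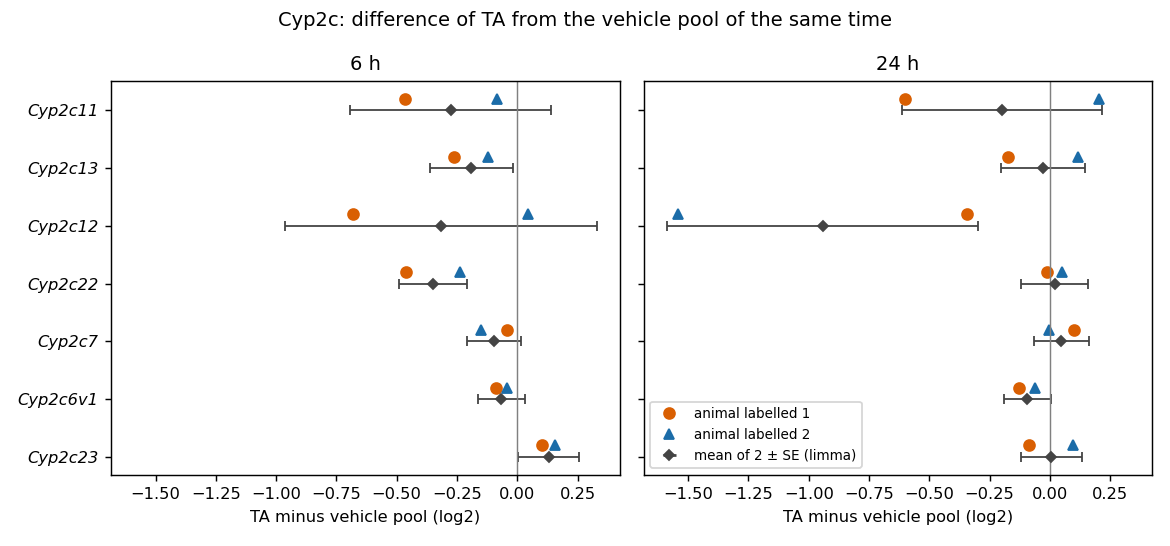
Log2 difference of TA from the vehicle pool of the same time (horizontal axis) for the 7 Cyp2c genes at 6 h (left) and 24 h (right). Circles and triangles are single animals and diamonds their mean with the standard error from limma, where the standard error of Cyp2c12 (0.65) is the widest and that of Cyp2c6v1 (0.10) the narrowest.

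The sequences before the start sites of these 3 sex-dependent genes are shown because Cyp2c13 moved with Cyp2c11 across the arrays but resembles Cyp2c12 in sequence. They are the 250 bases before the start, from RefSeq on build GRCr8, which held such an entry for 6 of the 7 genes, not for Cyp2c6v1. Cyp2c11 is at chr1:246174966-246175215 on the plus strand, Cyp2c12 at chr1:248677035-248677284 and Cyp2c13 at chr1:248787189-248787438, both on the minus strand. Each is written 5′ to 3′ towards the gene, with matches to the motifs searched in capitals.
Cyp2c11: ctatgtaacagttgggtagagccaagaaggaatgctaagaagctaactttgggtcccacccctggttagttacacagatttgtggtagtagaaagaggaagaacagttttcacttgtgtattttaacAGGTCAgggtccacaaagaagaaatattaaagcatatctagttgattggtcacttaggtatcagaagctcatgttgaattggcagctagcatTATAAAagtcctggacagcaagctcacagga
Cyp2c12: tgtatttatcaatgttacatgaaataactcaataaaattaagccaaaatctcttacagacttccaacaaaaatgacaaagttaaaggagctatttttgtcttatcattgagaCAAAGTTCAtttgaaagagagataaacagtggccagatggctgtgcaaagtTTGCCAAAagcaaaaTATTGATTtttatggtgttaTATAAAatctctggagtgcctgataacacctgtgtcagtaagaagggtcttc
Cyp2c13: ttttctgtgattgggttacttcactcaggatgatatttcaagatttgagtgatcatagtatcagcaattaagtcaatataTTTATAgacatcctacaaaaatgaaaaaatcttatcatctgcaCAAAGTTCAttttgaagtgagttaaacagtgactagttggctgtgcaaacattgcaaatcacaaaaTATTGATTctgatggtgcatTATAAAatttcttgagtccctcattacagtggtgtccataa
The motifs were searched on both strands, and no matches overlap in these 3 sequences. TATAAA, the TATA box, begins 31 bases before the start in Cyp2c11, 52 in Cyp2c12 and 41 in Cyp2c13, and is found in 12.9% of 33469 such windows. Cyp2c13 holds another on the opposite strand, 170 bases before its start. CAAAGTTCA, a site of the hepatocyte factor HNF4A, begins 138 bases before the start in Cyp2c12 and 127 in Cyp2c13, and 0.281% of all windows hold it. TATTGATT, a site of HNF6, the product of Onecut1, begins at 72 and 61 bases in the same 2 genes, and 0.621% of all windows hold it. Cyp2c12 holds TTGCNNAA, a C/EBP site, at 87 bases, as do 9.22% of windows, and Cyp2c11 holds AGGTCA, a single binding element of nuclear receptors, at 123 bases, as do 14.1%. Neither CAAAGTCCA, another form of the HNF4A site, nor TTCNNNGAA, the site of STAT5, matched in these 3 windows, and they are found in 0.338% and 7.67% of all windows. Aligned end to end, Cyp2c12 and Cyp2c13 were identical in 60.7% of columns, Cyp2c11 and Cyp2c13 in 49.5%, and Cyp2c11 and Cyp2c12 in 46.9%. Across the arrays the order was another one: r was 0.92 for Cyp2c11 and Cyp2c13 but -0.11 for Cyp2c12 and Cyp2c13. In RefSeq's order Cyp2c12 and Cyp2c13 are also direct neighbours among the 17 Cyp2c genes and pseudogenes of chromosome 1.

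Onecut1 itself, whose motif the Cyp2c12 and Cyp2c13 windows share, was measured on the same arrays. At 6 h it read 11.78 for vehicle against 8.60 and 9.81 for TA, and at 24 h 8.40 for vehicle against 10.31 and 10.19. The log2 differences were -2.57 ± 0.57 and 1.85 ± 0.57 (limma, adjusted p of 0.769 and 0.923), and against the pool of the other time they turned to 0.80 and -1.52. Cyp2c12 stood highest in the pool of 24 h, the lowest array for Onecut1. Cyp2c13, with the same motif, stood highest (14.44) in the pool of 6 h, the highest array for Onecut1. A relation of either gene to Onecut1 was not tested.

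Cyp2c22, a hydroxylase of retinoic acid, was the gene whose 2 animals at 6 h lay clearest below vehicle. At 6 h it read 15.26 for vehicle against 14.79 and 15.02 for TA. At 24 h it read 15.34 for vehicle against 15.33 and 15.39. The animals of 6 h were therefore below all 4 other arrays, which spanned 15.26 to 15.39. Being below both vehicle pools in both animals was shared at 6 h by 1 other member, Cyp2c6v1, and by 18.7% of all probe sets. The log2 difference from vehicle was -0.35 ± 0.14 at 6 h, or 0.784-fold, with a 95% interval of -0.76 to 0.06 (limma, adjusted p = 0.885). It was 0.02 ± 0.14 at 24 h. The 2 effects differed by 0.37 ± 0.20 (limma, adjusted p = 1.00). Without animal 1 of 6 h the difference at 6 h was -0.24, and without animal 2 it was -0.46. Between the TA groups, Cyp2c22 was 0.45 ± 0.11 higher at 24 h than at 6 h, with an unadjusted p of 0.0205 and an adjusted p of 0.248, where 0 of 18625 probe sets (0.0%) passed and 2760 had an unadjusted p under 0.05. It was the only 1 of the 7 genes with an unadjusted p under 0.05 there, and its adjusted p lay between 0.225 and 0.428 over the alternatives. A share of 1 in 7 is near that of all probe sets, 2760 of 18625, so it does not set the subfamily apart. The comparison between the TA groups also spans 2 times of day and 2 dose numbers, which cannot be told apart.

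Cyp2c7, which oxidises retinoids and testosterone, differed little between arrays. It read 15.36 for vehicle at 6 h against 15.32 and 15.21 for TA, and 15.19 for vehicle at 24 h against 15.29 and 15.19. The pool of 6 h was the highest array and the pool of 24 h lay at the level of the lowest animal. The differences were -0.10 ± 0.11 at 6 h and 0.05 ± 0.11 at 24 h, and against the pool of the other time both turned, to 0.08 and -0.13. RefSeq lists Cyp2c7l1, a gene named as like it, whose transcripts may share its probes.

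Cyp2c6v1, a form present in both sexes, was the steadiest of the 7. It read 14.80 for vehicle at 6 h against 14.72 and 14.76 for TA, and 14.79 for vehicle at 24 h against 14.66 and 14.73. All 4 TA animals were below both pools. Its range over the arrays was 0.14 log2 units, which 84.1% of all probe sets exceeded or matched. The differences were -0.07 ± 0.10 and -0.09 ± 0.10, with 95% intervals of -0.35 to 0.22 and -0.38 to 0.19. At 24 h 27.4% of all probe sets were below both pools in both animals. RefSeq lists 5 pseudogenes named for Cyp2c6, and the suffix of this probe set marks probes common to alternative transcripts.

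Cyp2c23, an arachidonic acid epoxygenase better known from kidney, was the only member above vehicle in both animals at 6 h. It read 13.82 for vehicle at both times, 13.92 and 13.97 for the animals of 6 h and 13.73 and 13.91 in those of 24 h. Both animals of 6 h were above both pools, as were 12.2% of all probe sets. The differences were 0.13 ± 0.13 at 6 h and 0.01 ± 0.13 at 24 h. Without animal 2 of 24 h the latter turned to -0.08.

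The vehicle pools of the 2 times differed from each other too. From 6 h to 24 h the pool value changed by -0.20 for Cyp2c13, -0.17 for Cyp2c7, -0.12 for Cyp2c11 and 0.28 for Cyp2c12, and by 0.08 or less in size for the other 3 genes. With 1 pool a time, this difference has no replicate check. Of the 7 genes 0 passed limma's test of the difference between the effects of 24 h and 6 h (adjusted p of 1.00 for each, and 0 with an unadjusted p under 0.05), where 1 of 18625 probe sets (0.00537%) passed and 894 had an unadjusted p under 0.05. At so small a share, 0 of 7 does not set these genes apart. All 7 members lay near the top of the signal range, between the 98.2th and the 99.8th percentile of the probe sets tested. How far signals that high still follow the amount of RNA was not tested.

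Cyp2c11, Cyp2c12 and Cyp2c7 differed more between the 2 TA animals of each time than they differed, on average, from vehicle. The share of all probe sets that did so was not counted. For 5 of the 7 Cyp2c genes the animal labelled 1 was below the animal labelled 2 at both times, as for 19.5% of all probe sets, and for Cyp2c7 it was above at both, as for 21.8%. The gap of Cyp2c11 was 0.38 at 6 h and 0.81 at 24 h, and 1.52% of all probe sets had animal 1 lower by 0.38 or more at both times. Cyp2c12 turned, with animal 1 lower by 0.73 at 6 h and higher by 1.20 at 24 h. With each array centred on its median, animal 1 of 6 h was lower for 5 rather than 6 of the 7 genes.

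Sex-dependent liver genes outside the subfamily were set beside these gaps. Of 14 measured genes of that list, animal 1 was lower at both times for 5, higher at both for 4 and turned for 5. The genes with wide gaps among them were picked for description after their values were seen, other than Cyp3a18, A1bg and Akr1b7. Cyp3a18, a male-predominant steroid-oxidising P450, was at 12.59 in animal 1 and 13.83 in animal 2 of 6 h, and at 12.83 and 13.92 in those of 24 h. Its vehicle pools were at 14.09 and 13.39. Obp3, an alpha-2u-globulin, was at 10.93 and 12.86 at 6 h and at 11.80 and 12.90 at 24 h, with pools at 11.72 and 11.86. Hsd3b5, a steroid dehydrogenase of male liver, was at 10.92 and 11.76 at 6 h and at 9.67 and 11.53 at 24 h, with pools at 11.68 and 10.91. In all 3 genes animal 1 was the lowest array of its time, as for Cyp2c11.

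For 3 other genes of the list animal 1 was higher at both times by more than 1 log2 unit. Prlr, the prolactin receptor, was at 9.01 in animal 1 and 7.58 in animal 2 of 6 h, and at 9.26 and 6.99 in those of 24 h, with pools at 8.25 and 7.91. A1bg, a plasma protein, was at 6.85 and 3.38 at 6 h and at 4.77 and 2.61 at 24 h, with pools at 3.13 and 3.00, so that only the animals labelled 1 stood clear of the floor of the values. Akr1b7, an aldo-keto reductase also put in this list, was at 9.85 and 6.63 at 6 h and at 7.83 and 5.51 at 24 h, with pools at 5.03 and 5.65. Each pool thus lay between the animals of its time for Prlr, while for A1bg and Akr1b7 the animals labelled 1 stood above both pools. Cyp3a2, Cyp2a2, Rup2 and Sult1e1 differed by at most 0.13 between the animals of each time. Against vehicle 0 of the 14 genes were called, with medians of -0.03 at 6 h and 0.05 at 24 h, 3 higher and 5 lower in both animals at 6 h, where 22.9% and 38.4% of all genes were, and 4 higher and 2 lower at 24 h, where 28.1% and 34.5% were. Akr1b7 and A1bg had 3.22 ± 1.81 and 1.99 ± 1.87 at 6 h, and Serpina3n, a protease inhibitor, had -0.70 ± 0.21 at 24 h. At 6 h animal 1 was in another inferred run than animal 2, while at 24 h both were in 1. The part of run or of other causes was not tested. Across all probe sets the gap between animals at 6 h and at 24 h correlated at -0.08, so that the 2 pairs of animals had no general order in common.

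**Figure D3:**
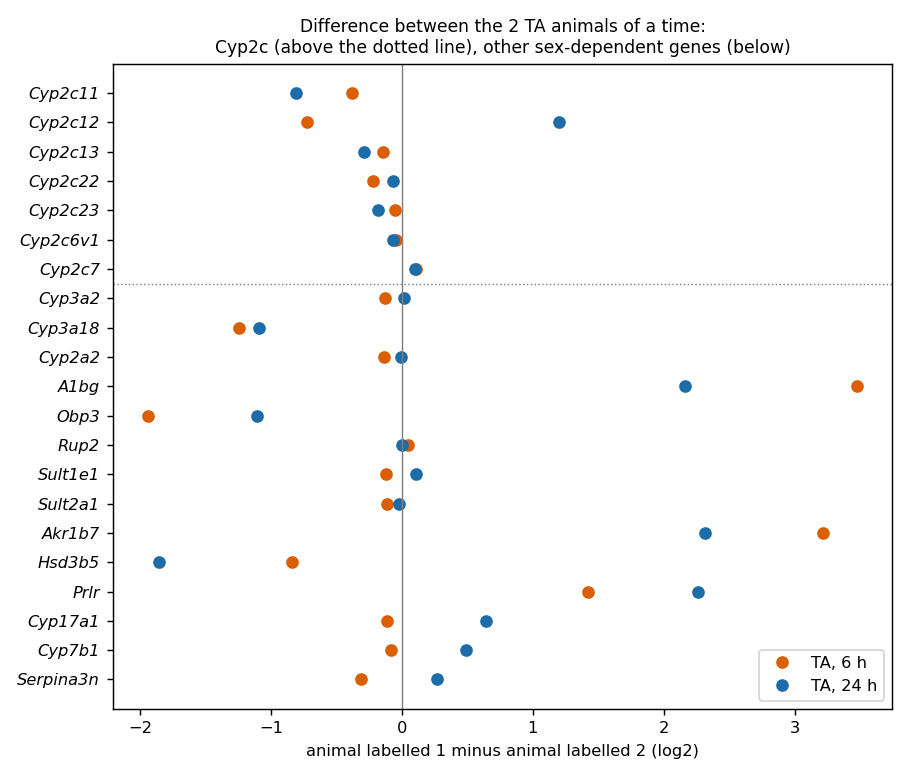
Difference between the TA animals labelled 1 and 2 (log2, horizontal axis) at 6 h (orange) and 24 h (blue), for the 7 Cyp2c genes above the dotted line and the 14 measured genes of the sex-dependent list below it. Cyp2c11, Cyp3a18, Obp3 and Hsd3b5 lie left of 0 at both times, Prlr, A1bg and Akr1b7 right of it, and Cyp2c12 on both sides.

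Genes with a profile like that of each of 5 members were found by Pearson's r over the 6 arrays, among 7033 probe sets with a range of at least 0.5 log2 units. For Cyp2c11 these were Steap4, Pcf11 and Acot3, with r of 0.99 each, and 25 probe sets had r above 0.9. For Cyp2c22 they were Rb1, Crem and Smim14 (0.99 each), and 158 probe sets had r above 0.9. For Cyp2c6v1 they were Usp34, Rbms3 and Nln (0.98, 0.98 and 0.97), for Cyp2c7 Eif4g1, Zc3h7b and Il16 (0.98, 0.97 and 0.97), and for Cyp2c23 Slco2a1, Hacl1 and Itga7 (0.97, 0.95 and 0.94). Each r is that of 1 probe set, which for Crem, Usp34, Eif4g1 and Slco2a1 was not the brightest of the gene. The Slco2a1 set lay between 3.99 and 5.80. Its brightest set instead fell at 6 h, from 12.45 in the pool to 12.13 and 11.63 in the animals. With 6 arrays, of which 2 are pools, and so many probe sets compared, values of this size are a description of these arrays.

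The electron donors of the Cyp2c enzymes and the genes that supply their haem were not called at either time. Of 9 measured genes, 3 were lower and 1 higher than vehicle in both animals at 6 h, and 2 lower and 4 higher at 24 h. Among all 10449 genes with 1 symbol, 38.4% were lower and 22.9% higher at 6 h, 34.5% and 28.1% at 24 h, and 0.0% were called at either time. The median of the 9 genes was -0.06 at 6 h and 0.04 at 24 h. Por, the reductase that passes electrons to all microsomal P450 enzymes, read 10.14 for vehicle at 6 h against 9.39 and 9.67 for TA, a difference of -0.61 ± 0.27 (limma, adjusted p = 0.921). Cyb5a, cytochrome b5, lay between 15.05 and 15.28 on all arrays. Cpox, of haem synthesis, read 11.38 for vehicle at 6 h against 10.88 and 11.24 for TA, a difference of -0.32 ± 0.19 that was -0.15 without animal 1 and -0.50 without animal 2. Alas1, the rate-limiting enzyme of haem synthesis, was at 11.97 in the pool and 11.44 and 11.91 in the animals. At 24 h Cyb5b had 0.23 ± 0.15 and Hmox1, which breaks haem down, -0.18 ± 0.69.

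Among transcription factors and hormone receptors that act on Cyp2c genes, 0 of 16 measured genes were called. At 6 h 8 were lower and 1 higher than vehicle in both animals, where 38.4% and 22.9% of all genes were, with a median of -0.15. At 24 h 6 were lower and 5 higher, where 34.5% and 28.1% of all genes were, with a median of 0.00. After Onecut1, the widest difference at 6 h among genes on 1 side of vehicle in both animals was that of Cebpb, -0.90 ± 0.33, from 10.43 in the pool to 9.19 and 9.87 in the animals (limma, adjusted p = 0.851). It was 0.02 against the pool of 24 h. Bcl6, a repressor that is itself sex-dependent, was at 10.97 in the pool of 24 h and 8.92 and 6.97 in the animals, a difference of -3.03 ± 1.67, and at 7.37 in the pool of 6 h with 10.46 and 7.36 in its animals. Bcl6 was thus higher in animal 1 than in animal 2 at both times. Hnf4a was between 12.39 and 12.85 on all arrays, with the 4 TA animals below both pools. Ghr, the growth hormone receptor, lay between 13.07 and 13.78 and Stat5b, which carries its signal, between 6.70 and 7.45. The receptors PXR (Nr1i2) and CAR (Nr1i3) lay between 6.97 and 7.65 and between 3.67 and 7.12. For Nr1i3 the animals of 24 h stood on either side of their pool of 4.42, at 3.67 and 6.24.

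Target genes of CAR and PXR were not called either. Of 14 measured genes 7 were lower and 4 higher than vehicle in both animals at 6 h (median -0.11), and 3 were lower and 3 higher at 24 h (median -0.01). Over all genes the shares lower and higher were 38.4% and 22.9% at 6 h, and 34.5% and 28.1% at 24 h. Cyp2b1 and Cyp2b2, the classical targets of CAR, had no probe set of that symbol alone. At 6 h Abcb1a, a drug efflux pump, had -0.76 ± 0.16 and Cyp3a18 -0.88 ± 0.76. Abcb1a was at 7.22 in the pool of 6 h, 6.43 and 6.48 in the animals and 5.56 in the pool of 24 h, so that it was above vehicle, by 0.90, when set against the pool of 24 h. At 24 h Cyp3a2 had -0.37 ± 0.11, with 15.14 in the pool and 14.78 and 14.76 in the animals, below all 4 other arrays. Slco1a4, an organic anion uptake transporter, had -0.37 ± 0.14 at 24 h. The adjusted p of these genes lay between 0.760 and 1.00.

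Genes of arachidonic and retinoic acid oxidation and of epoxide hydrolysis were set beside Cyp2c22, Cyp2c23 and Cyp2c11, and 0 of 18 measured were called. At 6 h 7 were higher and 2 lower than vehicle in both animals, where 22.9% and 38.4% of all genes were. At 24 h 9 were higher and 5 lower, where 28.1% and 34.5% were. The medians were 0.11 and 0.10. Cyp4a1, a fatty acid omega-hydroxylase, had 0.51 ± 0.21 at 6 h, from 12.65 to 12.96 and 13.37. Ephx1, the microsomal epoxide hydrolase, had 0.40 ± 0.30, and Ephx2, the soluble one that acts on the epoxides of arachidonic acid, lay between 9.68 and 11.10 on the arrays. Cyp26a1, the inducible enzyme of retinoic acid clearance, had 1.28 ± 0.31 at 24 h, from 5.42 in the pool to 6.40 and 7.01 in the animals, which were its highest values (limma, adjusted p = 0.904). Cyp4a3 had -0.54 ± 0.35 at 24 h.

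**Figure D4:**
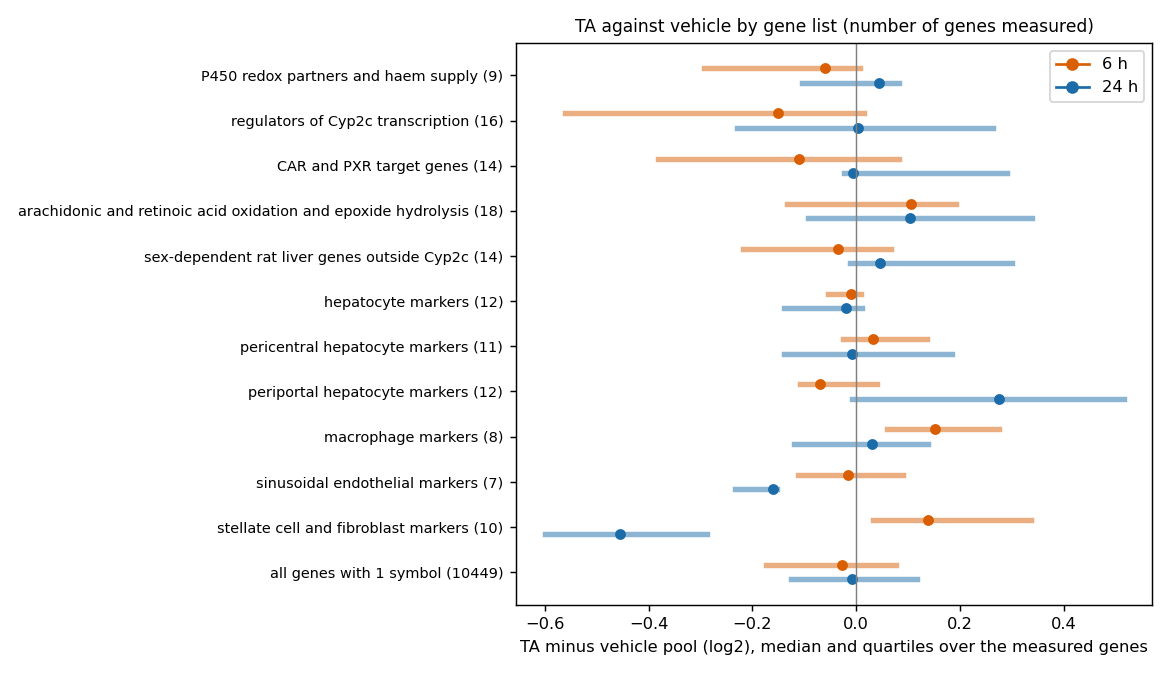
Median (point) and quartiles (bar) of the log2 difference of TA from vehicle over the measured genes of each list at 6 h (orange) and 24 h (blue). The bottom pair is all 10449 genes. The regulators at 6 h lie mostly below 0 (median -0.15, quartiles -0.56 and 0.01), and stellate cell markers have the lowest median at 24 h, -0.45.

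Liver cell markers were set beside these values, since Cyp2c enzymes are made in hepatocytes, mostly those around the central vein. Hepatocyte markers had medians of -0.01 at 6 h and -0.02 at 24 h. Pericentral markers, 11 measured, had 0.03 and -0.01, with 5 higher and 3 lower in both animals at 6 h and 4 higher and 3 lower at 24 h. Over all genes the shares higher and lower were 22.9% and 38.4% at 6 h, and 28.1% and 34.5% at 24 h. Among the pericentral markers Cyp2e1 lay between 14.81 and 15.17, Cyp1a2 between 13.20 and 14.05 and Glul, glutamine synthetase, between 11.06 and 12.36. Periportal markers had medians of -0.07 and 0.27 over 12 genes.

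Of the other cells of the liver, macrophage markers had medians of 0.15 at 6 h and 0.03 at 24 h over 8 genes, and sinusoidal endothelial markers -0.02 and -0.16 over 7. Stellate cell and fibroblast markers had 0.14 and -0.45 over 10 genes, with 7 lower in both animals at 24 h, where 34.5% of all genes were. The mean level of the stellate list was 7.67 in the pool of 24 h and 7.20 and 7.19 in the animals, and that of the macrophage list 9.32 against 9.18 and 9.48. Erythroid, lymphocyte and cholangiocyte lists had 3, 3 and 2 measured genes, with medians of 0.33, 0.08 and 0.09 at 6 h and of -0.15, -0.01 and 0.02 at 24 h. None of the genes of these lists passed limma's test, and their part in the Cyp2c values was not tested.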

How the data were processed

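The deposited log2 values of 6 Affymetrix Rat230_2 arrays were used as the authors gave them. Per the submitters' processing notes they were made in R 2.0.1 with affy 1.5.8, and both RMA and GCRMA are named, so which of them made the values is unknown here. Differences near the floor of 2 to 3 are compressed. The 57 control probe sets were left out, and 18625 of 31042 probe sets with a mean above 2.82 were tested. The 4 groups were modelled by limma 3.58.1 under R 4.3.3, using lmFit and eBayes (2 residual and 1.60 prior degrees of freedom), with two-sided tests, Benjamini-Hochberg adjustment over all of them and a threshold of 0.05. The procedure was run on simulated data to check that estimates came near the planted changes. That check does not show how large a change these 6 arrays could call. The platform annotation, which can be old, names 20826 probe sets with 1 gene, 436 with several and 9780 with none. In lists, a gene with several probe sets takes its brightest one. The genes and lists were chosen with earlier results of these data known. Every Cyp2c gene above the filter is named, as are the 3 genes most like each of 5 of them, 18 genes looked up in any case and, in each list of partners, regulators and related genes, the 2 genes with the widest difference among those on 1 side of vehicle in both animals. Hsd3b5, Obp3 and Prlr, named for the gap between animals, were chosen after their values were seen, as were Cyp2a2, Rup2, Sult1e1 and Sult2a1. Lists of cell markers are given by counts and medians. Alternatives covered the filter, normalization, prior, control group, replicate block, run, probe set summary and leaving out arrays. Array number limits the precision, and arrays give no counting depth.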

Additional observations from a re-analysis of the deposited data

Results flagged for a closer look

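Of 37 genes outside the Cyp2c family whose levels or differences are given, 7 had both animals on one side of vehicle at 6 h and on the other at 24 h. Of all genes, 38.4% were below and 22.9% above vehicle in both animals at 6 h, and 34.5% and 28.1% at 24 h. The share of all genes that changed sides was not counted, so 7 of 37 is not shown to be unusual. The difference of the 2 effects (24 h minus 6 h, log2) was 4.42 ± 0.80 for Onecut1, 1.11 ± 0.23 for Abcb1a, 1.58 ± 0.44 for Cyp26a1, -0.45 ± 0.15 for Cyp3a2, 0.36 ± 0.33 for Alas1, 0.17 ± 0.17 for Sult1e1 and 0.072 ± 0.13 for Rup2. None passed limma's test of the difference after adjustment over all probe sets (adjusted p of 1.00 for each). On the values as deposited none of the 7 Cyp2c genes had such a pattern, but with arrays centred on their medians Cyp2c22 and Cyp2c7 were lower in both animals at 6 h and higher in both at 24 h, and with quantile normalization Cyp2c22 was.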

How the results depend on the processing

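Every Cyp2c difference was recomputed under 13 settings, which gave 364 values. Of these 333 kept their direction and 31 turned, none passed the test, and the smallest adjusted p was 0.225. Part of the 333 could not turn. The filter and the prior leave each estimate as it is, and each Cyp2c gene has 1 probe set to average. Leaving out an animal of 1 time, or the run as a block at 24 h, also leaves some differences unchanged. The 333 is therefore no measure of robustness. Among 247 values of other genes, to which most of these limits also apply, 241 kept their direction and 6 turned. Against the pool of the other time, values turned at 6 h for Cyp2c13 (0.012), Cyp2c7 (0.077), Onecut1 (0.80), Cebpb (0.023) and Abcb1a (0.90), and at 24 h for Cyp2c7 (-0.13), Onecut1 (-1.52) and Bcl6 (0.57). The difference of effects then became -0.16 for Cyp2c11, -0.24 for Cyp2c13 and -0.20 for Cyp2c7. With both pools as 1 control it became -0.044, -0.040 and -0.029 for these 3 genes, Cyp2c7 at 24 h became -0.039 and Abcb1a at 6 h 0.067. Quantile normalization gave -0.037 for Cyp2c23 at 24 h, and the run as a block 0.025 for Cyp2c7 between the TA groups.

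The replicate number as a block turned Cyp2c22 and Cyp2c23 at 24 h, to -0.053 and -0.052. The numbers only name different rats, and the gaps of same-numbered animals correlated at -0.08 between the times. The replicate block left 0 probe sets called for every comparison.

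Leaving out 1 TA animal, values turned with ranges at 24 h of -0.60 to 0.20 for Cyp2c11, -0.17 to 0.12 for Cyp2c13, -0.013 to 0.052 for Cyp2c22, -0.085 to 0.097 for Cyp2c23 and -0.0026 to 0.098 for Cyp2c7, and at 6 h of -0.68 to 0.046 for Cyp2c12. The difference of effects ranged from -0.33 to 0.48 for Cyp2c11 and from -0.060 to 0.0051 for Cyp2c6v1. TA at 24 h against TA at 6 h ranged from -0.45 to 0.36 for Cyp2c11, -0.95 to 0.25 for Cyp2c12, -0.18 to 0.10 for Cyp2c13 and -0.083 to 0.025 for Cyp2c7. In these fits the lone animal is assumed to vary like the other group.

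The single call over all probe sets was no firmer. The count at 6 h rose from 0 to 1 against the other pool. At 24 h it was 2 with trended, robust variances, 0 with the other pool, both pools, the replicate block, the run or probe set means, and 0 to 2 without 1 animal. The count for the difference of effects was 0 with both pools, the replicate block, the run, probe set means or any animal left out. The causes were not tested. With 2 animals a group and 1 vehicle pool, the 95% interval of the difference from vehicle included 0 for all 7 Cyp2c genes at both times.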
